A study of Bos taurus with 2 samples.

Results

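The bovine microRNAs bta-miR-1343, bta-miR-1249, bta-miR-671, bta-miR-1281 and bta-miR-1584 are described here, 5 of the 670 miRNAs and 12 of the 1465 probes on the array. They were picked by name, with earlier results of these arrays known, because they were brighter in milk whey supernatant than in the vesicle pellet and have GC-rich probes. Their excess in supernatant and their GC share therefore chose them and are given as a description, without a test. All 5 were brighter on the supernatant array before scaling between the arrays, whereas after scaling it reached 2-fold for miR-1343, miR-1249 and miR-671 only. The working name also calls them intragenic, and by RefSeq's annotation of ARS-UCD2.0 this held for 4 of the 5.

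Raw milk from Holstein cows was turned into whey, and the whey was spun at 10000 g for 90 min at 4 °C. The pellet, washed in buffer, is labelled exosome, the name of small vesicles that cells release, and what stayed above it is the supernatant. Per fraction, RNA of 3 milk samples was combined equally, and 40 ng of it, carrying the dye Cy3, went onto a bovine miRNA array from Agilent read in 1 colour. No animal was treated, and both fractions come from the same kind of raw milk. Each fraction is thus 1 pooled RNA on 1 array, so no difference has a replicate check, no p-value is given, and the array and the fraction cannot be told apart. The ± values are SDs over the spots of an array, hence technical spread alone, and the number of arrays limits the precision. For a miRNA averaged over its probes, the SD pools the spread within each probe and leaves out the spread between probes. Equal RNA masses were labelled, so a signal is relative to the RNA of its fraction, not to a volume of milk. Fewer vesicles or cells that carry a miRNA and less of it in each cannot be told apart. The sample title calls the spin of the supernatant ultracentrifugation, yet the stated force is low for pelleting small vesicles. Whether the force is given correctly is not known, so how completely small vesicles were removed from the supernatant is in doubt.

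MicroRNAs are short RNAs that guide Argonaute proteins to partly matching messenger RNAs, mainly through their seed near the 5′ end, and lower the output of those messages. Many lie inside a host gene and can be cut from the host's transcript, so host and miRNA may be made together. Milk holds miRNAs inside vesicles and also outside them, bound to proteins or in other particles. Probes of this array platform are short and pair with 1 stretch of the miRNA, and each miRNA has probes of graded length that start at the same base.

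The 12 probes are shown because the results turn on how probes that differ by 1 to 3 bases read. Each is written 5′ to 3′, with the bases that a longer probe adds to the shortest probe of the same miRNA in capitals.
miR-1343, shorter probe: cccgcccggg
miR-1343, longer probe: cccgcccgggG
miR-1249, shorter probe: tgaagaaggggggg
miR-1249, longer probe: tgaagaagggggggA
miR-671, shortest probe: ctccagcccc
miR-671, shorter middle probe: ctccagccccT
miR-671, longer middle probe: ctccagccccTC
miR-671, longest probe: ctccagccccTCC
miR-1281, shorter probe: gggagaggaggag
miR-1281, longer probe: gggagaggaggagG
miR-1584, shorter probe: tgcccccagcc
miR-1584, longer probe: tgcccccagccC

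The RNA stretch that pairs with the longest probe, its reverse complement, shows what each probe reads. It is rich in G for miR-671 and miR-1584, has C and U as its main bases for miR-1249, and holds only C and U for miR-1281.
miR-1343: ccccgggcggg
miR-1249: ucccccccuucuuca
miR-671: ggaggggcuggag
miR-1281: ccuccuccucuccc
miR-1584: gggcugggggca

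GC made up 100% of both miR-1343 probes. The share was 81.8% and 83.3% for the 11-base and 12-base probes of miR-1584. The 4 miR-671 probes held 80%, 72.7%, 75% and 76.9% from the shortest to the longest. The miR-1281 probes held 69.2% and 71.4%, and the miR-1249 probes 64.3% and 60%. The median over the longest probes of all 670 miRNAs was 50% GC and 17 bases, against 76.9% and 13 bases for the 5. Short probes are GC-rich across this array design: Spearman's rho between GC share and length of the longest probe was -0.89 over the 670 miRNAs, which share 1 design. Among probes of the same length the members stood out less. The 60% of miR-1249 equalled the median of the 82 other longest probes of 15 bases. miR-671 and miR-1584 also equalled the medians of other probes of their lengths, 76.9% over 41 and 83.3% over 20. miR-1281 lay above the median of 64.3% of 50 others, and miR-1343 above the 90.9% of 10 others.

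**Figure D1:**
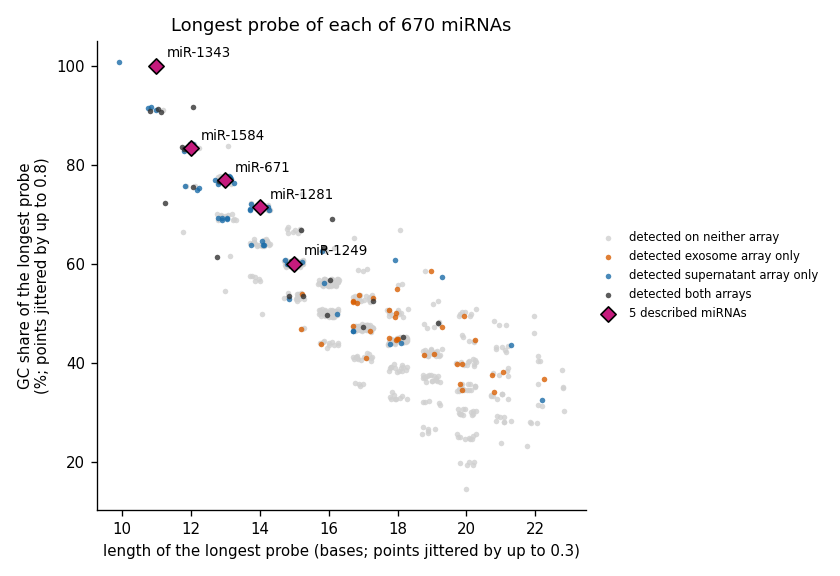
GC share (percent) against length (bases) of the longest probe of each of the 670 miRNAs, coloured by the array on which the miRNA was detected, with small random offsets on the points of the other miRNAs. The 5 described miRNAs (diamonds, no offset) lie at 11 to 15 bases and 60% to 100% GC, on the GC-rich, short side of the design.

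The base composition differed among the 5. The miR-1343 probes consist of G and C only, hold 2 CpG steps and contain a stretch of 6 bases, cccggg, that is its own reverse complement. A longest probe without A and T was found for 3 of 670 miRNAs (0.448%), and a stretch of at least 6 bases that equals its own reverse complement for 95 (14.2%). Of the 3, the supernatant array detected all 3 and the exosome array 2. Of the 95, each array detected 7 (7.37%). The miR-1249 probes carry 7 G in a row. A run of at least 6 G was present in the longest probe of 3 miRNAs, miR-1249, miR-2391 and miR-2892. All 3 were detected on both arrays, as were 30 of all 670 miRNAs. The miR-671 and miR-1584 probes carry runs of 4 and 5 C. A run of at least 4 C was present in the longest probe of 34 miRNAs (5.07%), of which the supernatant array detected 20 (58.8%) and the exosome array 10 (29.4%). The miR-1281 probes hold no T and no C. The longest probe lacked T for 64 miRNAs (9.55%), of which the supernatant array detected 14 (21.9%) and the exosome array 8 (12.5%). Of all 670 miRNAs, the supernatant array detected 12.7% and the exosome array 9.85%. These features were picked after the probes were seen, were searched as written on the probe strand, and overlap each other in part. The counts include the members themselves, which were chosen for their supernatant signal. They are matches of letters and are no measure of binding.

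Positions follow the design file of the array, on build HGSC Btau_3.1. The listed intervals fall 1 base short of the probe length, which leaves 1 base of doubt at an end. The longest miR-1343 probe is placed at chromosome 15 from 65174970 to 65174979. The longest miR-1249 probe is placed at chromosome 5 from 122417010 to 122417023. The longest miR-671 probe lies at chromosome 4 from 118105020 to 118105031. The longest miR-1281 probe lies at chromosome 5 from 119437553 to 119437565, and that of miR-1584 at chromosome 3 from 10736945 to 10736955. RefSeq's annotation of another build, ARS-UCD2.0, used here for names and neighbours only, gives the host genes without strand or exons. MIR1343 overlaps PDHX, a subunit of the pyruvate dehydrogenase complex. MIR1249 overlaps KIAA0930, and MIR671 overlaps CHPF2, which takes part in chondroitin sulfate synthesis. MIR1584 overlaps TAGLN2, an actin-binding protein, and a long noncoding RNA (LOC132344822). MIR1281 overlaps no annotated gene and lies beside EP300, a histone acetyltransferase, so "intragenic" does not describe it in this annotation. Whether a miRNA lies in an exon, an intron or a UTR was not analysed here. The arrays do not measure the host transcripts. Among the 659 of 670 array miRNAs that were matched to RefSeq, no other lies within 10 kb of the 5 or in their hosts. The unmatched ones could not be placed. The other arms of 2 of the hairpins are on the array as miR-1343* and miR-1584*, and neither was detected on either array.

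The first comparison asked in which fraction each miRNA was seen. A probe counts as detected with 50% or more of its spots well above background, and a miRNA counts with 1 such probe. All 5 were detected on the supernatant array, by every one of their 12 probes, where 12.7% of all miRNAs were. On the exosome array miR-1343, miR-1249 and miR-1584 were detected, all 3 by both probes, where 9.85% of all miRNAs were. miR-671 and miR-1281 were detected on the supernatant array only, as were 8.21% of all miRNAs. The choice of the members used these signals, so nothing is read from these counts. The calls of miR-671 and miR-1281 on the exosome array depended on the rule. When a spot only had to be positive and significant, all 5 were detected on the exosome array, where 26.3% of all miRNAs then were, and the scanner software's own flag called 4, miR-671 included, against 11.8% of all miRNAs.

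**Figure D2:**
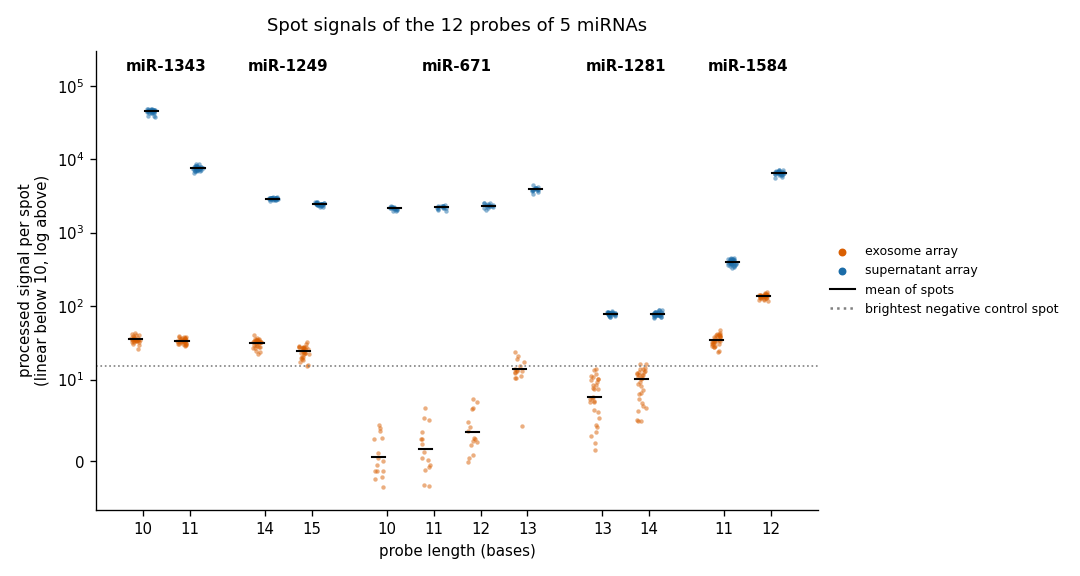
Processed signal (background-subtracted brightness, linear below 10 and logarithmic above) of every spot that was not an outlier, by probe length, on the exosome array (orange) and the supernatant array (blue); black bars are means over spots and the dotted line is the brightest negative control spot of either array, 15.1. In all 12 probes every supernatant spot lies above every exosome spot, while the distance differs between probes of miR-1343 and of miR-1584.

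For miR-1343 the 10-base probe read 35.3 ± 3.70 on the exosome array (27 spots, 26.4 to 42.6, median 34.8). The same probe read 44656 ± 2937 on the supernatant array (28 spots, 37173 to 48622, median 45219). The 11-base probe read 33.8 ± 2.90 on the exosome array (30 spots, 28.6 to 38.9) and 7537 ± 481 on the supernatant array (29 spots, 6468 to 8510). On the exosome array both probes were dim but above the 981 negative control spots, which read 4.67 ± 3.46 with a highest value of 15.0. The supernatant signal was 1266 times the exosome signal for the shorter probe and 223 times for the longer.

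For miR-1249 the 14-base probe read 31.5 ± 4.23 on the exosome array (29 spots, 22.3 to 41.1) and 2910 ± 75.1 on the supernatant array (29 spots, 2733 to 3020). The 15-base probe read 24.1 ± 4.39 (30 spots, 15.4 to 32.9) and 2445 ± 88.0 (29 spots, 2258 to 2592). Both probes gave a like excess in supernatant, 92.4 times for the shorter and 101 times for the longer. Of the 30 exosome spots of the longer probe, 27 were well above background, so this miRNA was near the limit of detection there.

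For miR-671 the 4 probes, from 10 to 13 bases, had 15 spots each. On the supernatant array they read 2138 ± 100.3, 2215 ± 115, 2338 ± 145 and 3889 ± 254. On the exosome array the 3 shorter probes read 0.523 ± 2.47, 1.44 ± 2.91 and 3.59 ± 2.48, within the spread of the negative control spots. The longest probe read 14.1 ± 4.74 there (4.31 to 23.7), and 3 of its 15 spots were well above background. The exosome signal of miR-671 thus rested on the longest probe, whose mean lay below the brightest negative control spot. Against the lowest signal of a detected probe on the exosome array, 18.2, the bounds without scaling ran from at least 117-fold for the 10-base probe to at least 213-fold for the 13-base probe.

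For miR-1281 the 13-base probe read 7.85 ± 3.18 on the exosome array (29 spots, 1.33 to 13.9) and 79.1 ± 3.45 on the supernatant array (29 spots, 71.2 to 84.9). The 14-base probe read 10.2 ± 3.26 (30 spots, 4.94 to 16.4) and 78.4 ± 5.22 (30 spots, 70.0 to 89.7). No exosome spot of either probe was well above background. The probes gave the same picture, with a bound of at least 4.34-fold for the shorter and 4.30-fold for the longer without scaling.

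For miR-1584 the 11-base probe read 34.8 ± 5.95 on the exosome array (30 spots, 23.5 to 47.7) and 398 ± 33.3 on the supernatant array (30 spots, 335 to 449). The 12-base probe read 137 ± 8.70 (30 spots, 118 to 155) and 6516 ± 381 (28 spots, 5503 to 7089). The longer probe ends in 1 more C. The excess in supernatant was 11.5 times for the shorter probe and 47.7 times for the longer, so that the probes disagreed on its size.

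All 12 probes had every supernatant spot above every exosome spot without scaling, where 10.4% of all 1465 probes had. The share of 10.4% is taken over all probes, of which the supernatant array detected 166. The members were chosen for being brighter in supernatant, so nothing is read from this contrast. Spots of 1 probe repeat the same RNA and are no replicates of a fraction.

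The second comparison asked how large the differences were. Averaged over probes, miR-1343 gave an exosome signal of 34.5 ± 3.32 and a supernatant signal of 26097 ± 2105. miR-1249 read 27.8 ± 4.31 and 2678 ± 81.8, and miR-1584 read 85.7 ± 7.45 and 3457 ± 270.3. miR-671 read 4.91 ± 3.29 and 2645 ± 165, and miR-1281 read 9.03 ± 3.22 and 78.7 ± 4.42. The levels of different miRNAs are not comparable, since each probe binds with its own strength, so only differences between the arrays are compared.

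The size of every difference depends on how the arrays are put on 1 scale. Both arrays detected 53 probes, whose 75th percentile of signal was 473 for exosome and 15029.8 for supernatant. Dividing by it moved each log2 difference, exosome over supernatant, up by 4.99. The 53 include both probes of miR-1343, miR-1249 and miR-1584, so the members themselves enter the scale in part. The log2 difference of miR-1343 was -4.57 after scaling and -9.56 without, with an SD between spots of the same probe of 0.18. That of miR-1249 was -1.60 and -6.59, with an SD of 0.23. That of miR-1584 was -0.34 and -5.33, with an SD of 0.17. In folds, miR-1343 was 23.8 times brighter in supernatant after scaling, miR-1249 3.03 times and miR-1584 1.27 times. Of the 3, miR-1343 and miR-1249 thus passed 2-fold towards supernatant after scaling, as 26.7% of the 30 miRNAs detected on both arrays were. Without scaling all 3 were, against 70% of the 30. Their median log2 difference stood at -1.60 scaled and -6.59 unscaled, beside 1.30 and -3.69 over the 30. This contrast chose the members, so nothing is read from the distance between these medians.

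For miR-671 the supernatant excess was at least 4.57-fold with scaling and at least 145-fold without. miR-1281 was at least 4.32-fold higher without scaling, and after scaling no fold could be given, because its supernatant signal then lay below the lowest detected exosome signal. A bound of at least 2-fold was held by 5.45% of the 55 miRNAs seen on the supernatant array only after scaling, and by 58.2% without. Differences and bounds together, all 5 were at least 2-fold higher without scaling, as were 62.4% of the 85 miRNAs detected on the supernatant array. A supernatant excess of miR-1281 thus rests on comparing the arrays unscaled or by a scaling that moves the differences less.

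**Figure D3:**
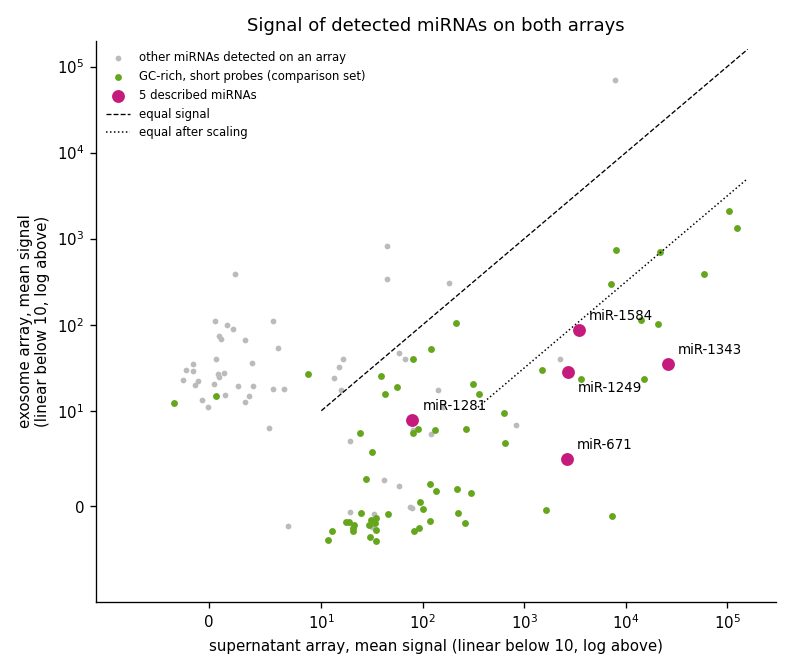
Mean signal on the exosome array against mean signal on the supernatant array (linear below 10, logarithmic above) for each miRNA detected on at least 1 array; the dashed line marks equal signal, and the dotted line, drawn where the exosome signal is 10 or more, marks equal signal after scaling. All 5 described miRNAs lie below the dashed line; miR-1343 and miR-1249 lie clearly below the dotted line, and miR-1584 is close to it.

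Of the spiked control RNAs, those added before labelling moved between the arrays, while those added after it stayed near the same signal. The labelling controls dmr_285 and dmr_31a, RNAs added before labelling, read 237 ± 142 and 116 ± 18.2 on the exosome array against 68.4 ± 41.0 and 44.5 ± 6.54 on the supernatant array. The hybridisation controls dmr_3 and dmr_6, added after labelling, read 5886 ± 3386 and 1479 ± 385 on the exosome array. On the supernatant array they read 6130 ± 3441 and 1587 ± 431. Their exosome signals were 0.960 and 0.932 times their supernatant signals. The labelling controls were thus dimmer on the supernatant array. Scaled to them, all 5 miRNAs had a difference or bound of at least 2-fold towards supernatant, with -11.15 for miR-1343, -8.18 for miR-1249 and -6.92 for miR-1584. So did 90.6% of the 85 miRNAs detected on the supernatant array, so this count says little of the 5. The part of labelling in the differences was not tested.

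Over the 7 ways of putting the arrays on 1 scale, miR-1343 ranged from -11.15 to -4.57, miR-1249 from -8.18 to -1.60 and miR-1584 from -6.92 to -0.34. The bound of miR-671 ranged from -8.77 to -2.19. These 4 kept the direction towards supernatant under each of the 7, while miR-1281 had a bound under 5 of them. Another background correction, normexp with an offset of 50, gave -3.20 for miR-1343, -0.05 for miR-1249 and 0.28 for miR-1584, so miR-1584 turned. Of the 5, 1 was then at least 2-fold higher in supernatant, as were 8.24% of the 85. The offset exceeds the exosome signals of miR-1343, miR-1249, miR-671 and miR-1281 and raises dim signals most on a log scale.

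**Figure D4:**
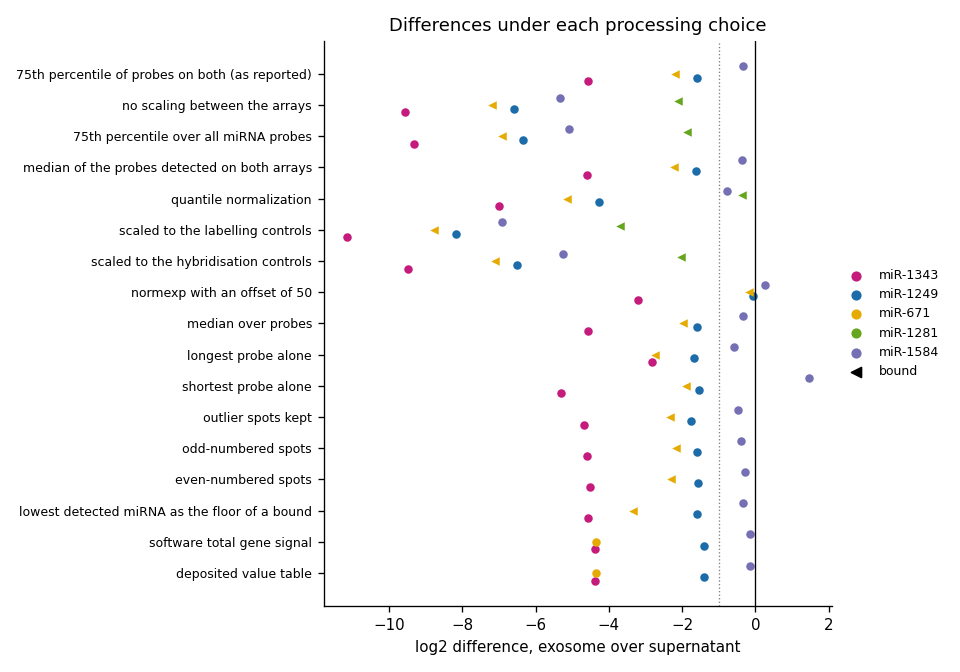
Log2 difference, exosome over supernatant, of each of the 5 miRNAs under 17 processing choices (points are differences, triangles are bounds; a bound that does not reach below 0 is not drawn). The dotted line marks a 2-fold excess in supernatant; miR-1343 lies beyond it under all 17 choices, and miR-1584 crosses 0 under normexp and with the shortest probe alone.

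The third comparison asked whether the probes of 1 miRNA gave the same difference. For miR-1249 the probes gave log2 differences of -1.54 and -1.67 after scaling, closer than their SDs of 0.20 and 0.27. For miR-1343 they gave -5.32 with 10 bases and -2.81 with 11 bases, a gap of 2.50. For miR-1584 they gave 1.47 with 11 bases and -0.59 with 12 bases, a gap of 2.06 and opposite directions. The spot SDs of these 4 values were between 0.12 and 0.27, far below the gaps, but do not include an offset in the background. The miR-1343 probes (35.3 and 33.8) and the 11-base miR-1584 probe (34.8) were dim on the exosome array, where the lowest detected probe read 18.2. The miR-1343 probes read alike there and apart on the supernatant array, with 44656 and 7537. The gap does not change with a common scaling factor, because such a factor moves both probes alike. Over the 22 miRNAs with at least 2 probes detected on both arrays the median gap was 0.25, and 22.7% of them had a gap over 1. The gaps of miR-1343 and miR-1584 ranked first and second of the 22, ahead of miR-2478 at 1.32, and that of miR-1249 ranked 15th. The added base was G for miR-1343 and C for miR-1584, as the sequences above show, and the gap went opposite ways: the longer probe gave the smaller supernatant excess for miR-1343 and the larger for miR-1584.

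**Figure D5:**
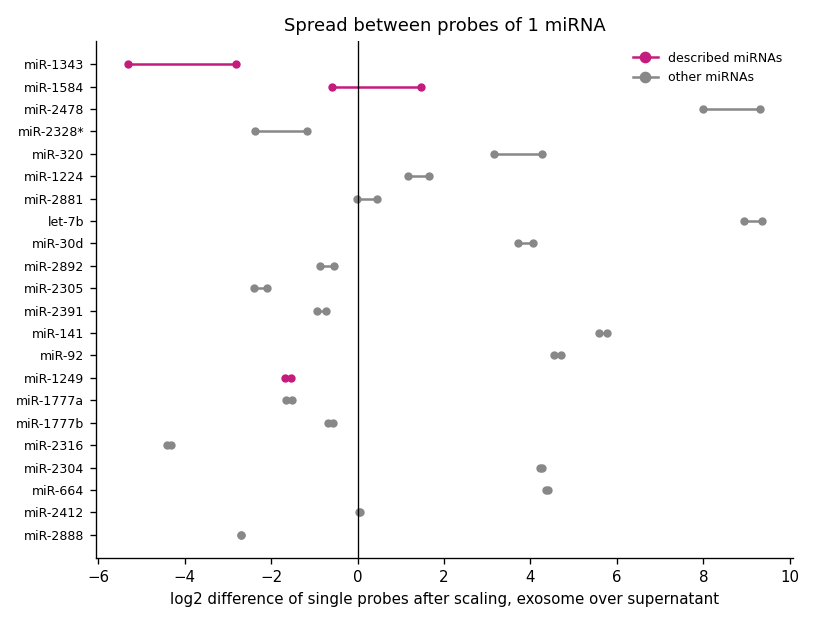
Lowest and highest log2 difference of single probes after scaling, exosome over supernatant, for the 22 miRNAs with at least 2 probes detected on both arrays, sorted by the gap between them. The described miRNAs (pink) hold the widest gaps, 2.50 for miR-1343 and 2.06 for miR-1584, and a gap of 0.13 for miR-1249.

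Signal shared between like sequences was looked for by sliding the shortest probe of each member along all probes of other miRNAs. No probe of another miRNA held the shortest probe of a member exactly. With 1 mismatch allowed, a probe of miR-345-3p matched the 10-base miR-671 probe, and none matched the others. miR-345-3p read 1.57 ± 3.35 in exosome and 134 ± 22.0 in supernatant, so it too was seen on the supernatant array only. A 10-base stretch can also occur in parts of listed miRNAs that no probe covers, or in RNAs that the array does not list. Neither was tested.

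The last comparison set the 5 beside the rest of the array. Of 172 other miRNAs whose longest probe has 11 to 15 bases and at least 60% GC, the supernatant array detected 57 (33.1%) and the exosome array 20 (11.6%). Of the 493 miRNAs outside this set and the 5, it detected 23 (4.67%) and the exosome array 43 (8.72%). For the 17 miRNAs of the set detected on both arrays, the log2 difference after scaling had a median of 0.05 and ranged from -4.36 to 4.38, and 6 of the 17 passed 2-fold towards supernatant. Without scaling the range was -9.34 to -0.61, with a median of -4.94, so that all 17 lay towards supernatant and 16 of them passed 2-fold. The direction within this set thus depended on the scaling. The scale itself rests on probes detected on both arrays, and 17 of the 30 miRNAs detected on both belong to this set. Probes of the very length of a member differed in how often they were detected on the supernatant array: 8 of 10 others with 11 bases as in miR-1343, 14 of 20 with 12 as in miR-1584, and 16 of 41 with 13 as in miR-671. The counts were 10 of 50 with 14 bases as in miR-1281 and 12 of 82 with 15 bases as in miR-1249. In exosome, 5 of 10 others with 11 bases, 6 of 20 with 12 and 4 of 41 with 13 were seen. With 14 and 15 bases, 0 of 50 and 9 of 82 were seen there. Over all 670 miRNAs the shares were 12.7% for supernatant and 9.85% for exosome. Probes of 11, 12 and 15 bases thus lay above the array-wide share in both fractions, those of 15 bases only slightly. Probes of 13 and 14 bases lay above it in supernatant and below it in exosome. The part of probe length and GC share in the differences was not tested.

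Lying in a protein-coding gene is common on this array. Of 659 miRNAs matched to RefSeq, 428 overlapped one (64.9%), the 4 members included. Of the 424 others, the supernatant array showed 43 (10.1%) and the exosome array 31 (7.31%). Of the 230 matched miRNAs outside protein-coding genes, other than miR-1281, 34 (14.8%) and 30 (13.0%) were. Among the 172 with GC-rich, short probes, 34 of 118 inside a protein-coding gene and 22 of 51 outside were detected on the supernatant array. On the exosome array 11 of the 118 (9.32%) and 9 of the 51 (17.6%) were. By these counts, which were not tested, the miRNAs inside protein-coding genes were seen less often than those outside on both arrays.

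The miRNAs nearest in signal to each of the 5 were taken within the set with GC-rich, short probes alone, by the distance of their unscaled log2 signals, which sets signals of different probes side by side and describes brightness only. miRNAs outside the set can lie nearer. For miR-1343 these were miR-2316, which read 23.4 ± 4.15 in exosome and 15182 ± 595 in supernatant, miR-2888 and miR-2328*. For miR-1249 they were miR-2374, with 23.1 ± 3.02 and 3638 ± 167, miR-2892 and miR-2316. For miR-1584 they were miR-2374, miR-2892 and miR-2328*. All of these were detected on both arrays, and the log2 differences after scaling were -4.36 for miR-2316, -2.69 for miR-2888, -2.31 for miR-2374, -1.96 for miR-2328* and -0.69 for miR-2892. For miR-671 the rule gave miR-2428, miR-2374 and miR-2882, and for miR-1281 it gave miR-1835, miR-425-3p and miR-2392. The exosome signals of miR-671 and miR-1281, and of these others except miR-2374, were not well above background, so their order on that array has no meaning. In supernatant miR-2428 read 643 ± 86.6 and miR-1835 read 89.0 ± 9.59.

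Markers of cell types gave the context of the fractions. Of the 5 listed milk and mammary epithelial miRNAs, exosome showed all and supernatant 4, with summed signals of 1624 and 287. On the exosome array 0 of the 5 leukocyte, 3 red cell, 3 muscle, 1 liver and 1 endothelial markers were detected. On the supernatant array miR-223 was the 1 detected of 5 leukocyte markers, miR-486 the 1 of 3 red cell markers and miR-133a the 1 of 3 muscle markers. The summed signals of these lists were 2.35, -2.10 and 5.34 in exosome and 16.0, 33.4 and 83.0 in supernatant. The liver marker miR-122 and the endothelial marker miR-126 were not well above background on either. The 3 markers detected in supernatant were brighter there before scaling, as the 5 miRNAs were, and their part in the differences was not tested.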

How the data were processed

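Small RNA was measured in 1 pooled exosome and 1 pooled supernatant sample. The submitters' processing notes name Agilent Feature Extraction, version 10.7.3.1. Intensities are the unit of the deposited scanner values, which are background-subtracted and not scaled between the arrays; the software adds a total intensity per miRNA. The value table, deposited in log2 units, equals log2 of that total over 0.1 with deviations of at most 4.9e-06 and 6.2e-06, with a column median of 0, so its scale is known; further steps are not given in the sources used here. Detection flags are deposited as other values of 0 or 1.

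Outlier spots (1005 and 1032 of 40200) were left out, spots of a probe and then probes of a miRNA were averaged, and each array was scaled by the 75th percentile of those probes that both arrays detected, before log2. No spot was saturated. A miRNA not detected on the exosome array has a bound against the lowest signal of a detected probe, 18.2, or its own signal if higher. No test was run, since each fraction has 1 array. The members and lists were chosen with earlier results of these data known. Named are the 5 miRNAs, for each the 3 miRNAs with GC-rich, short probes nearest in unscaled signal, miRNAs sharing a hairpin or host, and the controls; the rule on shared seeds was not applied, as mature sequences were not used here. Alternatives covered detection, scaling, background, probe summary, signal column and spots. Detection and unscaled differences were tested on simulated data without a shift between the arrays. There a fixed signal cutoff stood in for the scanner's flags. Simulated signals were mostly brighter than those of the members on the exosome array, so the test says little of detection near background. Scaling, bounds, normexp and the gaps between probes were not tested in this way. Software was limma 3.58.1 under R 4.3.3 for normexp, and Python 3.11.15 with pandas 2.3.3, numpy 2.4.6 and, for plots, matplotlib 3.10.9.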

Additional observations from a re-analysis of the deposited data

How the results depend on the processing

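Values are log2, exosome over supernatant, in the order miR-1343, miR-1249, miR-1584, with the bound of miR-671 last. The spread between spots of the same probe was the yardstick, which leaves out the gaps between probes. Without scaling they were -9.56, -6.59, -5.33 and -7.18. With the 75th percentile over all miRNA probes they were -9.31, -6.34, -5.08 and -6.93. With hybridisation controls they were -9.48, -6.51, -5.25 and -7.10, and with labelling controls -11.15, -8.18, -6.92 and -8.77. Under each of these 4 choices all 5 miRNAs were at least 2-fold higher in supernatant, against 3 as reported. Of the 85 miRNAs detected in supernatant, 62.4%, 56.5%, 60% and 90.6% were so in the same order, against 12.9%. The median of the 3 seen on both arrays then equalled the value of miR-1249. Quantile normalization gave -7.00, -4.26, -0.76 and -5.15, with a median of -4.26. Normexp gave -3.20, -0.05, 0.28 and -0.19, a median of -0.05, and 1 miRNA past 2-fold (8.24% of the 85); its offset lies above dim signals.

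The shortest probe alone gave -5.32 for miR-1343, 1.47 for miR-1584 and -1.89 for miR-671, and the longest alone -2.81, -0.59 and -2.75; the cause of the reversal of miR-1584 was not tested. The software's total and the value table gave -4.37 for miR-1343, -0.14 for miR-1584, -4.36 for miR-671, and a median of -2.88 over the 4 miRNAs then called on both arrays. The bound of miR-671 was -1.98 with the median over probes, -2.34 with outlier spots kept, -2.30 with even-numbered spots and -3.34 with the lowest detected miRNA as floor, a choice added after the data were seen. The unscaled bound of miR-1281, -2.11, became -0.94 with normexp, -2.26 with even-numbered spots, -3.12 with that floor, and -4.53 with the software's total and with the value table. With spots that were positive and significant 5 of the 5 were detected on the exosome array (26.3% of all miRNAs), against 3 (9.85%). The median of probes on both arrays as scale kept all values within the spot spread. No paired analysis was possible because each fraction has 1 array. Signals near the lowest detected probe, 18.2 and 18.8, limit what can be said of miR-671 and miR-1281.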
